A study of Mus musculus with 6 samples.

Results

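Semaphorins, plexins and neuropilins were taken from the table of read counts as the gene symbols of semaphorin classes 3 to 7, of the plexin families A to D and of both neuropilins. The symbols gave 31 of the 24421 genes counted: 20 semaphorins, 9 plexins and 2 neuropilins. The 6 libraries of total RNA came from 2 experiments on Dot1l, the methyltransferase of histone H3K79, each with 1 library per group. Skin blood endothelial cells (BECs) of E15.5 mouse embryos came from Tie2-Cre(-); Dot1l 2f/2f embryos (Cont) and from Tie2-Cre(+); Dot1l 2f/2f embryos (cKO), so both groups carried floxed Dot1l alleles, and RNA of 2 to 3 embryos was pooled. Sorting kept cells negative for F4/80, CD45 and Lyve1, and a figure legend of the study also lists CD31 as a positive marker. Tie2-driven Cre is active in endothelium and also in part of the blood lineage. Cultured cells were a yolk sac BEC line (CRL-2581) and dermal lymphatic endothelial cells (LECs, C57-6064L), pooled from 2 to 3 flasks. Both were transduced with lentivirus that carries dCas9-VP64 and guides to the Dot1l promoter (OE-BECs, OE-LECs) or with empty lentivirus (Cont BECs, Cont LECs), and EGFP positive cells were sorted.

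Semaphorins are secreted or membrane-bound guidance ligands, first known for steering axons and also active in vessel patterning. Most class 3 semaphorins are secreted and bind a neuropilin, which then pairs with a plexin of family A or D, while Sema3e binds Plxnd1 directly. The other classes are mostly membrane-anchored and bind plexins without neuropilin. Plexins carry an intracellular domain that inactivates small GTPases of the Ras family, which loosens adhesion and collapses the leading edge of a cell. Neuropilins are also co-receptors of vascular endothelial growth factors (VEGFs). In embryonic skin, Nrp1 and Plxnd1 are endothelial receptors, and Nrp2 is typical of veins and lymphatics.

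The total of counted reads ranged from 8863349 (Cont BECs, skin) to 31032461 (OE-LECs), and the 31 members took between 0.358% and 0.451% of them. Levels are given as reads per 1000000 counted reads of the library (CPM) with exact Poisson 95% intervals, and a count of 3 reads was treated as the floor, which is between 0.0967 and 0.338 CPM. Intervals and floors cover counting error only, since each group has 1 library. The libraries carried no molecular identifiers, so copies of one molecule are counted apart and the intervals can be too narrow. Dot1l had 762 reads in skin Cont BECs and 944 in the cKO-labelled library, and its log2 ratio of -0.07 had an interval from -0.21 to 0.07. Counts over the whole gene do not test deletion of its floxed part. The study reports a check of the knockout by RT-qPCR, without replicates, which is not part of these counts. The directions below follow the labels, so that library is called cKO-labelled throughout. Dot1l was 2.78-fold higher in OE-BECs and 2.30-fold higher in OE-LECs. All 8 pan-endothelial markers were over the floor in every library. The lymphatic markers Prox1, Pdpn and Ccl21a had 0 reads in both LEC libraries, and Reln had 1 read in each. Lyve1 (52184 and 60898 reads) and Flt4 (2785 and 4038 reads) were present there. Both were also present in cultured Cont BECs and OE-BECs, with 10680 and 14786 reads of Lyve1 and 2552 and 1369 of Flt4. In CPM, cultured Cont BECs and Cont LECs had 604 and 1998 of Lyve1 and 144 and 107 of Flt4. Of the 6 lymphatic markers, 2 were over the floor in each cultured library, and they were the same 2 in the BEC and LEC libraries. The name LEC therefore follows the labels below, and lymphatic identity was not tested. Skin Cont BECs, sorted as Lyve1 negative, had 1304 reads of Prox1 and 9105 of Lyve1. The skin libraries also held all 10 macrophage markers, 7 of 7 fibroblast markers and 7 of 7 pericyte and smooth muscle markers over the floor.

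Per kb of exon length, the receptors were the larger side of the family in skin BECs and the ligands were the larger side in the cultured lines. Per kb of exon length, summed CPM of the 11 receptors was 384 in skin Cont BECs and 313 in the cKO-labelled library, against 209 and 202 in the cultured Cont BECs and OE-BECs and 168 and 189 in Cont LECs and OE-LECs. Summed CPM per kb of the 20 ligands was 131 and 104 in the skin libraries, and 258, 226, 302 and 258 in the cultured libraries in the same order. The groups of skin and cultured libraries did not overlap on either side. Without the division by length, summed CPM of receptors and ligands was 3494 and 1014 in skin Cont BECs and 2805 and 778 in the cKO-labelled library. In culture these sums were close, with 2078 and 2142 in Cont BECs, 1853 and 2273 in Cont LECs and 2146 and 2277 in OE-LECs, and in OE-BECs the receptors were the larger (2302 and 2050). Sources differ in tissue, mix of cell types, culture and virus at once, and these cannot be told apart. Summed CPM in skin and cultured Cont BECs was 3675 and 62.6 for macrophage markers and 2532 and 2.83 for fibroblast markers.

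**Figure D1:**
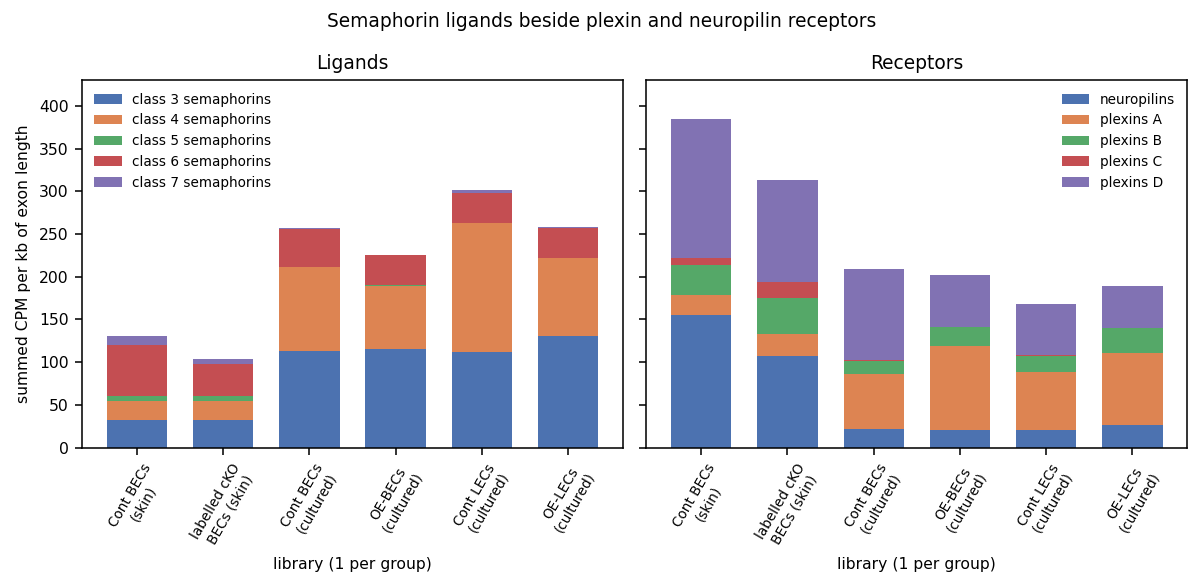
Bars show CPM per kb of exon length in each library, summed over the classes of semaphorins (left) and over neuropilins and plexin families (right). Plexin D and neuropilins make up most of the receptor bar in skin, and class 3 and class 4 semaphorins make up most of the ligand bar in culture.

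Plxnd1, the endothelial plexin, had the highest CPM per kb of the 31 genes in both skin libraries and in cultured Cont BECs. Its level was 1186 CPM in skin Cont BECs, 869 in the cKO-labelled library, 779 in cultured Cont BECs against 444 after overexpression, and 436 in Cont LECs against 362 after overexpression. The intervals of OE-BECs (433 to 455) and Cont LECs (428 to 445) overlapped, and the other neighbours in this order did not overlap.

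Nrp1, the co-receptor of Sema3a and VEGF-A, set skin and cultured cells apart. It had 812 CPM in skin Cont BECs and 589.6 in the cKO-labelled library, against 51.2 and 35.0 in the cultured BEC libraries (Cont, then OE) and 41.5 and 57.5 in the LEC libraries. In CPM it was 15.9-fold lower in cultured than in skin Cont BECs. Nrp2, which binds Sema3f and Sema3g and also VEGF-C, had 858 and 552 CPM in the skin libraries and between 197 and 246 CPM in the cultured libraries. Nrp1 was above Nrp2 per kb in both skin libraries, and Nrp2 was above Nrp1 in all 4 cultured libraries.

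Plexins of family A, which pair with neuropilins, were led by Plxna2 in culture. Plxna2 had 154 and 129 CPM in the skin libraries, 720.0 and 1161 in cultured Cont BECs and OE-BECs, and 875 and 1037 in Cont LECs and OE-LECs. Each cultured library was above both skin libraries. Plxna1, a receptor of Sema6d, had 92.9 and 123 CPM in skin, 193 and 254 in cultured Cont BECs and OE-BECs, and 134 and 184 in Cont LECs and OE-LECs. Plxna3 and Plxna4 stayed under 40 CPM in every library. Among B plexins, Plxnb2 took between 87.8% (Wilson 95% interval 86.5% to 89.1%, skin Cont BECs) and 98.4% of reads, and Plxnb1 and Plxnb3 made up the rest. Plxnb2, a receptor of Sema4c, had 238 and 299 CPM in skin, 115 and 169.8 in cultured Cont BECs and OE-BECs, and 145 and 223 in Cont LECs and OE-LECs, and was highest in the cKO-labelled library. Plxnc1, the receptor of Sema7a, had 73.1 and 156 CPM in the skin libraries and at most 1.98 CPM in culture.

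Sema3a, a secreted ligand of Nrp1, was the most abundant class 3 semaphorin in culture. It had 42.1 and 32.2 CPM in the skin libraries, 1237 and 1377 in cultured Cont BECs and OE-BECs, and 1216 and 1478 in Cont LECs and OE-LECs. It took between 90.0% and 93.2% of class 3 reads in the cultured libraries. In skin the leading class 3 member per kb was Sema3d, with 92.4 CPM in Cont BECs and 103 in the cKO-labelled library, against 0.565 to 0.935 CPM in culture. Sema4c, a ligand of Plxnb2, had the most class 4 reads everywhere, with 63.2 and 53.0 CPM in skin, 436 and 307 in cultured Cont BECs and OE-BECs, and 671 and 376 in Cont LECs and OE-LECs. Sema3f, a ligand of Nrp2, had 13.8 and 19.1 CPM in skin, 87.1 and 53.3 in the cultured BEC libraries and 111 and 91.6 in the LEC libraries. Both were higher in every cultured library than in skin.

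Several members were close to or at the floor in culture but not in skin. Sema4d, the ligand of Plxnb1, had 170 and 173 reads in the skin libraries, 2 reads in cultured Cont BECs and 0 reads in the other cultured libraries, where the 3-read floor is 0.215 CPM in OE-BECs and the exact interval ends at 0.265 CPM. Sema5b had 126 and 136 reads in skin and 3 reads in OE-BECs, with 0 reads in the other cultured libraries. With the 3-read floor in place of 0 reads, Sema5b was 83.8-fold lower in cultured than in skin Cont BECs. The interval of the log2 ratio ends at -6.07, which is a smaller fold. Sema4a had 83 and 134 reads in skin, 0 in both cultured BEC libraries, 2 in Cont LECs and 12 in OE-LECs. Sema5a, an anchored ligand with thrombospondin repeats, had 649 and 657 reads in skin, 20 and 55 in cultured Cont BECs and OE-BECs, and 12 and 17 in Cont LECs and OE-LECs, so that no cultured library came near the skin level. Sema4f had at most 6 reads in any library, the skin libraries included. Sema3b, Sema4g and Sema6c had at most 114 reads in any library. Sema4g was not closer to the floor in culture, with 46 reads (5.19 CPM) in skin Cont BECs and 80 (4.52 CPM) in cultured Cont BECs. In these cultured libraries 5 to 7 of the 10 macrophage markers and 2 to 5 of the 7 fibroblast markers were at 0, while the skin libraries summed to between 3675 and 5754 CPM of macrophage markers. The part of other cell types in the skin levels was not tested.

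**Figure D2:**
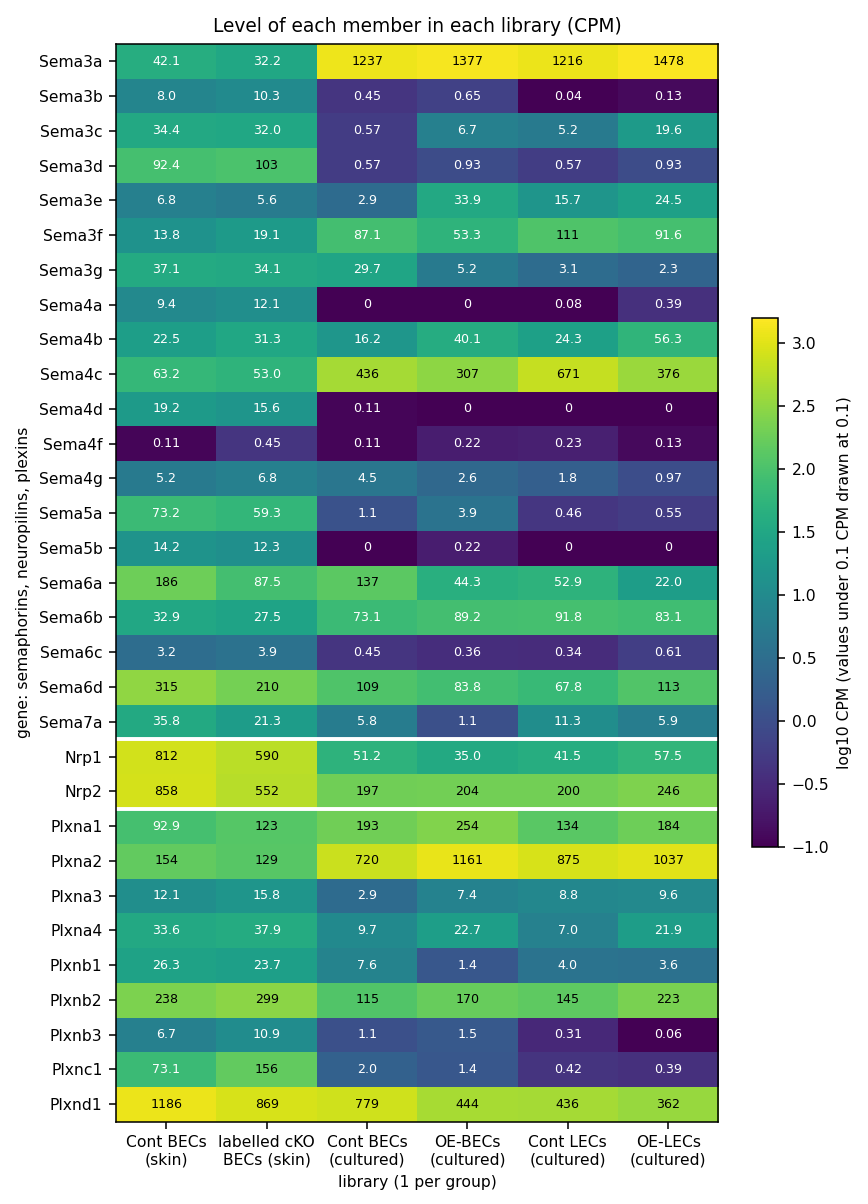
Each cell gives the CPM of a gene (row) in a library (column), coloured on a log10 scale. Sema3a, Sema4c and Plxna2 are bright in the 4 cultured libraries, and Nrp1, Nrp2, Sema3d, Sema5a and Plxnc1 are brighter in the 2 skin libraries.

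Of 30 members with at least 10 reads in the pair, 16 were more than 3-fold lower in CPM in cultured than in skin Cont BECs, where 24.2% of all such genes were, and 4 were more than 3-fold higher, where 8.78% of all such genes were. The 4 were Sema3a (29.4-fold), Sema4c (6.90-fold), Sema3f (6.33-fold) and Plxna2 (4.67-fold). The median log2 ratio was -1.79 over these members and -0.31 over all such genes. Between the cultured controls the members were nearer: of 26 with at least 10 reads, 3 were more than 3-fold higher in Cont LECs and 3 more than 3-fold lower, where 3.93% and 8.30% of all such genes were. Those higher were Sema3c (9.21-fold), Sema3e (5.33-fold) and Plxna3 (3.01-fold). Those lower were Sema3g (9.69-fold), Plxnc1 (4.70-fold) and Plxnb3 (3.51-fold).

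The first comparison asked what loss of Dot1l in endothelium does to the members in skin BECs. Ratios to control were computed on normalized counts (median of ratios of the pair), and reads of the pair gave an exact 95% interval (Clopper-Pearson). Under the 3-fold rule, taken from the study's methods, the larger normalized count had to exceed 3 times the smaller and to reach a minimum, 5 in skin and 3 in culture. With 1 library per group there is no replicate check, and each ratio describes 2 libraries. No member passed it in the cKO-labelled library in either direction, where 4.40% of all genes with a read were higher and 2.05% were lower. By interval alone, 6 of 30 members were higher and 12 were lower, where 23.1% and 25.4% of all genes with at least 10 reads were. The median log2 ratio was -0.19 over the 30 members and 0.00 over all such genes.

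Of the members with at least 10 reads, those with the largest ratios were the membrane-bound ligand Sema6a and the receptor Plxnc1. Sema6a, a ligand of Plxna2 and Plxna4, counted 1650 reads in the control and 970 in the cKO-labelled library, and was 2.21-fold lower (log2 ratio -1.14, interval -1.26 to -1.03). Sema7a, the glycolipid-anchored ligand of Plxnc1, had 317 and 236 reads and was 1.75-fold lower. Sema6d, a ligand of Plxna1, had 2789 and 2331 reads and was 1.55-fold lower. Class 4 was split, with Sema4c and Sema4d lower by 1.24-fold and 1.28-fold and Sema4b 1.34-fold higher.

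Of the 11 receptors, 4 were lower by interval, 4 were higher and 3 held no change, with a median log2 ratio of 0.12. Both neuropilins and Plxnd1 were among those lower, with Plxna2. Nrp1 had 7201 and 6536 reads (log2 ratio -0.52, interval -0.57 to -0.47), Nrp2 had 7605 and 6120 reads (-0.69, interval -0.74 to -0.64), and Plxnd1 had 10514 and 9633 reads (-0.50, interval -0.54 to -0.46). All 8 pan-endothelial markers were lower in the same library, with a median log2 ratio of -0.75. Of 5 lymphatic markers with at least 10 reads, 2 were higher and 3 lower (median -0.37): Prox1 had 1304 and 883 reads, Reln 4125 and 2942, and Lyve1 9105 and 19959. In bulk RNA, fewer cells of a type and less RNA per cell cannot be told apart.

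Plxnc1 counted 648 reads in the control and 1729 in the cKO-labelled library, and was 2.05-fold higher (log2 ratio 1.04, interval 0.91 to 1.17). All 10 macrophage markers were also higher there, with a median log2 ratio of 0.59 and a summed level of 3675 CPM in Cont BECs against 5754 CPM. Plxnb2 (1.21-fold), Plxna1 (1.27-fold) and Plxnb3 (1.58-fold) were higher as well. Of the keratinocyte markers with at least 10 reads, 5 of 7 were higher and 2 lower, and of the Schwann, neural crest and neuron markers 6 of 6 were higher. Fibroblast markers were lower for 6 of 7 and pericyte and smooth muscle markers for 5 of 7. The part of these cell types in the members' ratios was not tested.

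Among class 3 ligands in skin, Sema3a was 1.36-fold lower and Sema3f 1.34-fold higher. The intervals of the other 5 class 3 members held no change: Sema3c had 305 and 355 reads, Sema3e 60 and 62, Sema3g 329 and 378, Sema3d 819 and 1142, and Sema3b 71 and 114. A change was not detectable at this depth for Sema3e, whose interval ran from -0.87 to 0.21.

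**Figure D3:**
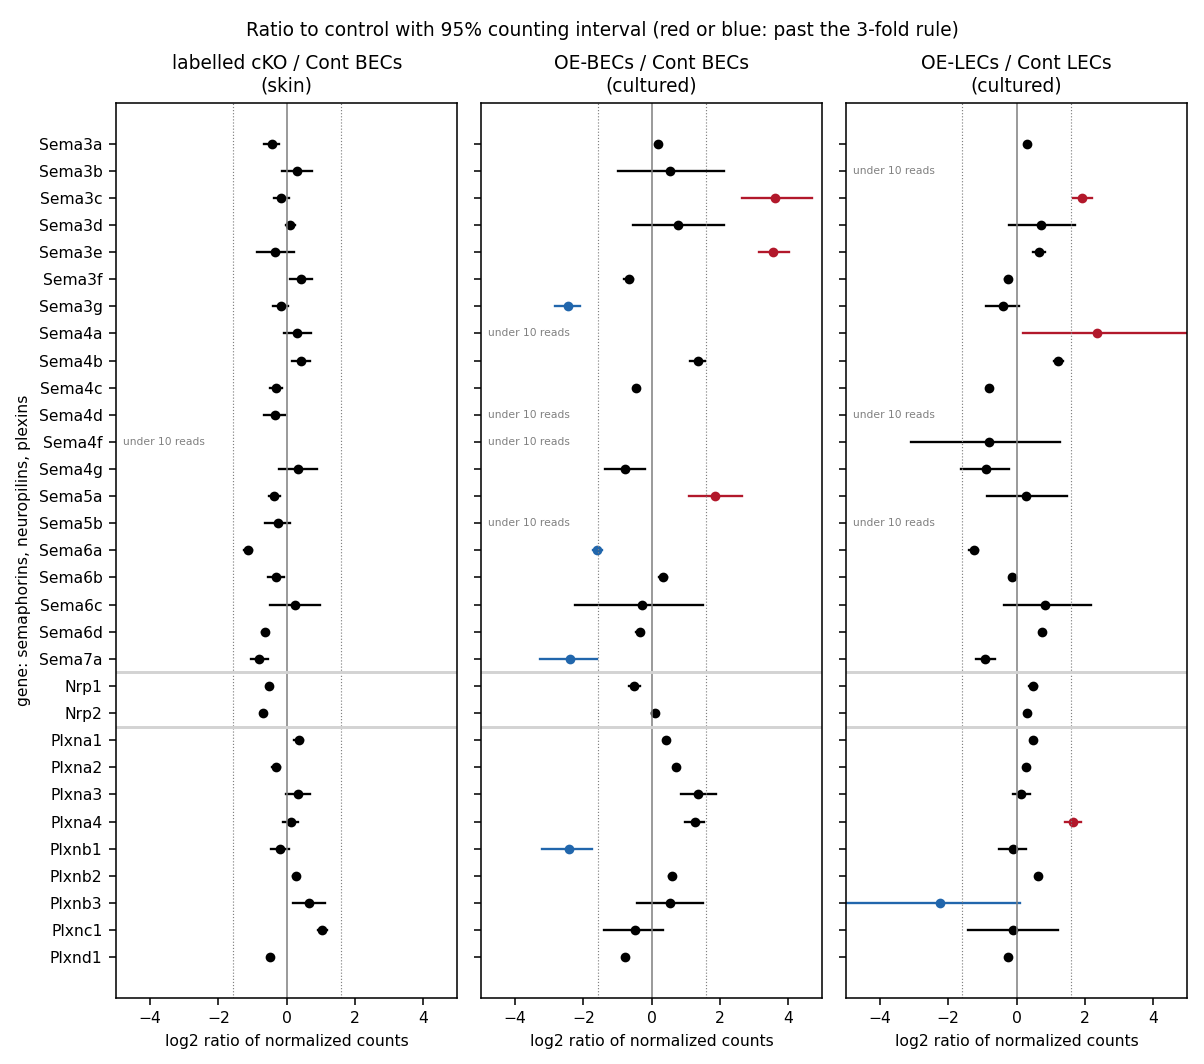
Points are log2 ratios of normalized counts to control for each gene, lines are 95% counting intervals (drawn to the axis limit where longer), and dotted lines mark 3-fold. Points in red or blue pass the 3-fold rule with at least 10 reads in the pair (Sema5b in OE-BECs and Sema3b in OE-LECs passed it on fewer reads and are not drawn): none in skin, Sema3c, Sema3e and Sema5a above and Sema3g, Sema6a, Sema7a and Plxnb1 below in OE-BECs, and Sema3c, Sema4a and Plxna4 above and Plxnb3 below in OE-LECs.

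The second comparison asked what overexpression of Dot1l does in the yolk sac BEC line. In OE-BECs, 4 members were higher by the 3-fold rule and 4 were lower, of 30 with a read, where 7.05% of all genes with a read were higher and 4.63% were lower. By interval alone 12 of 27 were higher and 10 were lower, where 27.4% and 30.0% of all genes were. The median log2 ratio was 0.19 over these 27 members and -0.01 over all genes. Ligands made up 7 of the 8 members past the rule and 19 of the 30 members with a read. Of these 7, Sema5b passed on 0 and 3 reads. The only receptor past the rule was Plxnb1.

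Sema3c, a secreted ligand needed for the cardiac outflow tract, numbered 10 reads in cultured Cont BECs but 93 after overexpression, beside 305 and 355 in the skin libraries and 136 and 607 in Cont LECs and OE-LECs. Its levels were 0.565 CPM (interval 0.271 to 1.04) in Cont BECs and 6.67 CPM (interval 5.39 to 8.18) in OE-BECs, and the skin libraries were highest with 34.4 and 32.0 CPM. It was 12.1-fold higher in OE-BECs (log2 ratio 3.60, interval 2.66 to 4.71).

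Sema3e, the ligand that binds Plxnd1 without neuropilin, had 60 and 62 reads in the skin libraries, 52 and 473 in cultured Cont BECs and OE-BECs, and 409 and 761 in Cont LECs and OE-LECs. In CPM these were 6.77, 5.59, 2.94, 33.9, 15.7 and 24.5 in the same order. OE-BECs were highest and cultured Cont BECs were lowest, and the intervals of these libraries did not overlap. Sema3e was 11.9-fold higher in OE-BECs (log2 ratio 3.57, interval 3.15 to 4.01). Its receptor Plxnd1 was 1.71-fold lower there, with 13782 and 6188 reads (log2 ratio -0.77, interval -0.82 to -0.73).

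Sema3g, an endothelial ligand of Nrp2, had 329 and 378 reads in the skin libraries, 525 and 73 in cultured Cont BECs and OE-BECs, and 80 and 71 in Cont LECs and OE-LECs. In CPM these were 37.1, 34.1, 29.7, 5.24, 3.06 and 2.29. OE-BECs lay below Cont BECs and above both LEC libraries. Sema3g was 5.52-fold lower in OE-BECs (log2 ratio -2.46, interval -2.84 to -2.11). Sema3f, which also binds Nrp2, was 1.59-fold lower, with 1540 and 742 reads, and Sema3a was 1.14-fold higher.

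Among the membrane-anchored ligands, Sema7a had 317 and 236 reads in skin, 102 and 15 in cultured Cont BECs and OE-BECs, and 295 and 184 in Cont LECs and OE-LECs. In CPM these were 35.8, 21.3, 5.77, 1.08, 11.3 and 5.93. OE-BECs were lowest of the 6 libraries, and Sema7a was 5.22-fold lower there (log2 ratio -2.38, interval -3.27 to -1.59). Sema6a had 186 and 87.5 CPM in the skin libraries, 137 and 44.3 in cultured Cont BECs and OE-BECs, and 52.9 and 22.0 in Cont LECs and OE-LECs, and each library labelled as changed was below its control. In OE-BECs, with 617 reads against 2429, it was 3.02-fold lower (log2 ratio -1.59, interval -1.72 to -1.47), just past 3-fold, and was under 3-fold with size factors from all 6 libraries (-1.57) and with total counts without the ribosomal gene Rn45s (-1.55). Sema5a had 20 and 55 reads and was 3.59-fold higher (log2 ratio 1.84, interval 1.08 to 2.66, which includes ratios under 3-fold). Sema5b passed the rule on 0 and 3 reads, at or under the floor in both libraries, so no fold is given. Sema4b was 2.54-fold higher without passing the rule, and Sema4c and Sema4g were 1.38-fold and 1.70-fold lower.

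Plxnb1, the receptor of Sema4d, had 233 and 263 reads in the skin libraries, 134 and 19 in cultured Cont BECs and OE-BECs, and 104 and 113 in Cont LECs and OE-LECs. OE-BECs were lowest, with 1.36 CPM against 7.58 CPM in Cont BECs, and Plxnb1 was 5.41-fold lower (log2 ratio -2.44, interval -3.21 to -1.74). All 4 A plexins were higher by interval without passing the rule: Plxna3 2.58-fold, Plxna4 2.40-fold, Plxna2 1.66-fold and Plxna1 1.35-fold. Nrp1 was 1.43-fold lower and Nrp2 was 1.07-fold higher. All 8 pan-endothelial markers were lower in OE-BECs as well, with a median log2 ratio of -0.56, and their part in these ratios was not tested.

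**Figure D4:**
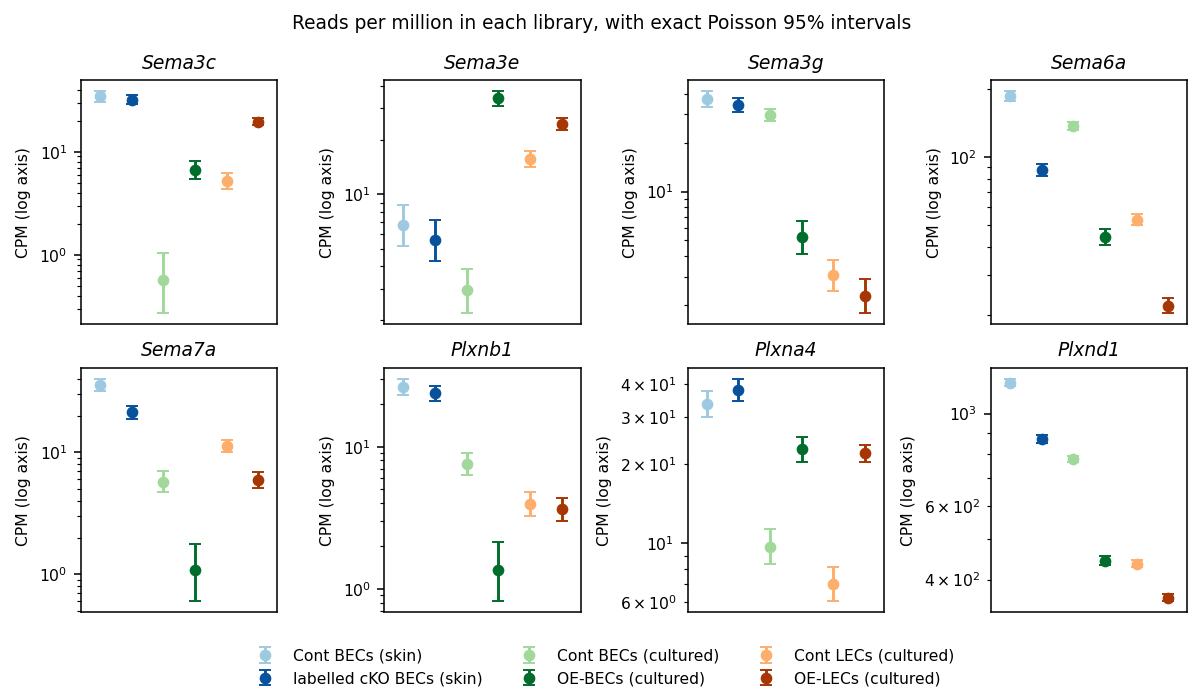
Points are CPM of 8 members in the 6 libraries on log axes, and bars are exact Poisson 95% intervals. Sema3c and Sema3e are higher in OE-BECs than in cultured Cont BECs, Sema3g, Sema6a, Sema7a, Plxnb1 and Plxnd1 are lower, and Plxna4 is higher in both OE libraries than in their controls.

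In the genome (mm10, GENCODE M21) most class 3 genes share a chromosome with another. Sema3d (chr5:12383385-12588948), Sema3a (chr5:13125414-13602565), Sema3e (chr5:14025276-14256689) and Sema3c (chr5:17574281-17730268) are all on the plus strand of chromosome 5. Of these 4 genes, Sema3a (1.14-fold), Sema3c and Sema3e were higher by interval in OE-BECs, where 27.4% of all genes with at least 10 reads were. Sema3d, with 10 and 13 reads, had an interval that held no change (-0.54 to 2.11). A link between position and ratio was not tested. Sema3b and Sema3f are both on the minus strand of chromosome 9, and Sema3g is alone on chromosome 14 (chr14:31217860-31230352). Plxnb1 (chr9:109095389-109119917) and Sema7a (chr9:57940112-57962865) are on chromosome 9 as well. All 31 members are annotated as protein coding, and reads were counted over whole genes, so no exon or isoform can be told from another.

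Sequence upstream of the RefSeq start (GRCm38.p6, the build of mm10) was read for members whose ratios were large in OE-BECs. The window of Sema3c lies wholly within the gene as GENCODE places it, and that of Plxnb1 reaches further into its gene than the Sema3g window below. Neither is printed. Windows of some other members, such as Nrp1, Plxna2 and Sema3a, also lie within their GENCODE genes. All of these windows are kept in the shares below. The GENCODE start of Sema3g, 31217860, lies shortly before the end of its window, so the last bases printed are within that gene model. A promoter entry was matched for 26 of the 31 members, in 37 windows of 250 bases that end at the start. Plxna1, Plxna4, Sema3b, Sema3f and Sema6a were not matched. Median GC content was 64.0% over the 37 windows and 52.4% over all 32851 windows. The GC box (GGGCGG on either strand) was in 27 of the 37 windows and in 32.7% of all windows. The TATA box (TATAAA) was in 0 of 37 and in 12.4% of all, the CCAAT box (CCAAT) in 7 and in 33.8%, the AP-1 site (TGANTCA) in 3 and in 6.75%, and the TEAD site (GGAATG) in 3 and in 12.6%. A match of letters is a description and not a bound site, and several windows belong to the same gene. Windows of Sema3e (higher in OE-BECs), Sema3g and Sema7a (lower) are printed 5′ to 3′ on the strand of the gene, so that members of opposite direction can be set side by side. Capitals mark each GC box, and no other of these motifs was in the 3 windows.
Sema3e, chr5:14025026-14025275, plus strand: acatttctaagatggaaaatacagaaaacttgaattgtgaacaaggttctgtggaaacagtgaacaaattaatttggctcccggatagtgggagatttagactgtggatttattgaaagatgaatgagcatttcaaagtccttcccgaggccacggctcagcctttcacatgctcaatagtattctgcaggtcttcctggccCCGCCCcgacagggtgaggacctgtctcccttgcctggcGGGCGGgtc
Sema3g, chr14:31217623-31217872, plus strand: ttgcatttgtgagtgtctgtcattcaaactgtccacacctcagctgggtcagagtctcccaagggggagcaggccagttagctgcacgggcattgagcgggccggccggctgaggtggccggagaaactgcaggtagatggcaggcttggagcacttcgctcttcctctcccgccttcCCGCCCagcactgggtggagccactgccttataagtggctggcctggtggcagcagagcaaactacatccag
Sema7a, chr9:57939862-57940111, plus strand: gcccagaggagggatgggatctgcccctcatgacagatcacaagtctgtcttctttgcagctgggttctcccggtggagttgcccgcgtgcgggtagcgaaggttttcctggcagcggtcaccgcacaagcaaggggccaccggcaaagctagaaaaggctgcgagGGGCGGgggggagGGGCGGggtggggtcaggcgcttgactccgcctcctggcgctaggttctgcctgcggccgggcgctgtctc
The window of Sema3e held 2 GC boxes at 48.0% GC, that of Sema3g 1 at 60.4% GC and that of Sema7a 2 at 66.4% GC. A link between the box and the ratio was not tested.

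The third comparison asked the same of the cells labelled dermal LECs. In OE-LECs, 4 members were higher by the 3-fold rule and 1 was lower, of 29 with a read, where 2.38% of all genes with a read were higher and 1.79% were lower. Of these 5, Sema3c and Plxna4 had at least 20 normalized counts. By interval alone 12 of 28 members were higher and 7 were lower, where 24.2% and 21.4% of all genes were. The median log2 ratio was 0.27 over the 28 members and 0.00 over all genes.

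Sema3c numbered 136 reads in the control and 607 in OE-LECs, which are 5.21 CPM (interval 4.37 to 6.16) and 19.6 CPM (interval 18.0 to 21.2). It was 3.80-fold higher (log2 ratio 1.93, interval 1.66 to 2.21). Plxna4, a receptor of Sema6a and Sema6b, had 298 and 420 reads in the skin libraries, 172 and 316 in cultured Cont BECs and OE-BECs, and 184 and 680 in Cont LECs and OE-LECs. It was 3.15-fold higher in OE-LECs (log2 ratio 1.65, interval 1.42 to 1.90), and the lower end of the interval lay under 3-fold. The other 3 rested on few reads. Sema4a had 2 and 12 reads (log2 ratio 2.35, interval 0.19 to 5.56). Sema3b had 1 and 4 reads, and Plxnb3 had 8 and 2 reads, and the interval of either held no change.

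Below 3-fold, Sema4b was 2.34-fold higher in OE-LECs, with 635 and 1747 reads. Sema6d was 1.69-fold, Sema3e 1.59-fold, Plxnb2 1.55-fold, Nrp1 1.40-fold, Plxna1 1.39-fold and Nrp2 1.25-fold higher. Sema6a was 2.38-fold lower, with 1381 and 682 reads. Sema7a and Sema4g were both 1.88-fold lower, Sema4c was 1.76-fold lower, with 17515 and 11677 reads, and Plxnd1 was 1.19-fold lower. Of the pan-endothelial markers, 7 of 8 were lower in OE-LECs, with a median log2 ratio of -0.23.

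Side by side, OE-BECs and OE-LECs have their own controls and share no library. Of 26 members with at least 10 reads in both pairs, 9 had intervals above no change in both lines, where 11.0% of all 12570 such genes did. These were Sema3a, Sema3c, Sema3e, Sema4b, Nrp2, Plxna1, Plxna2, Plxna4 and Plxnb2. Another 6 had intervals below no change in both, where 11.6% of all such genes did: Sema3f, Sema4c, Sema4g, Sema6a, Sema7a and Plxnd1. So 3 of 4 A plexins were on the higher side in both lines, and Plxnd1 was on the lower side. Nrp1, Sema6b and Sema6d had intervals on opposite sides, which are 3 members, where 9.51% of all such genes did. Sema3e was 11.9-fold higher in OE-BECs and 1.59-fold higher in OE-LECs, and this difference between the lines was not tested. In the control lines Sema3e was 15.7 CPM in Cont LECs and 2.94 CPM in Cont BECs. Sema6a, Sema7a, Sema4c and Plxnd1 were lower by interval in all 3 comparisons, the cKO-labelled library included. The share of all genes lower in all 3 was not computed. Taken singly, 25.4% (cKO-labelled), 30.0% (OE-BECs) and 21.4% (OE-LECs) of all genes with at least 10 reads were lower by interval.

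Of 42 genes of semaphorin signalling outside the family (co-receptors, other neuropilin ligands, GTPases and their regulators, kinases and Furin), 1 was higher by the 3-fold rule in the cKO-labelled library, while OE-BECs had 2 on the higher side with 1 on the lower side, and OE-LECs had 0. Over all genes with a read, 4.40% were higher and 2.05% lower in the cKO-labelled library, with 7.05% and 4.63% for OE-BECs, then 2.38% and 1.79% for OE-LECs. Cd72, a Sema4d receptor of B cells, had 5 reads in skin Cont BECs and 30 in the cKO-labelled library (log2 ratio 2.21, interval 0.83 to 3.93). Rnd1, the GTPase that binds A and B plexins, was 3.36-fold higher in OE-BECs, with 207 and 534 reads, and 1.85-fold higher in OE-LECs, with 1093 and 2372 reads. Itga1, a chain of the integrin that binds Sema7a, was 3.08-fold lower in OE-BECs, with 2564 and 638 reads. Dpysl5 passed the rule on 0 and 5 reads. By interval, 16 of 35 such genes with at least 10 reads were higher and 13 lower in OE-BECs, 12 of 36 higher and 8 lower in OE-LECs, and 8 of 41 higher and 20 lower in the cKO-labelled library. Over all genes these shares were 27.4% and 30.0%, 24.2% and 21.4%, and 23.1% and 25.4%, in the same order. Furin and Kdr are among the 42 genes and are named here after their values were seen. Furin, the protease that cleaves class 3 semaphorins, was 2.29-fold lower in OE-BECs, with 5009 and 1681 reads, and 1.58-fold lower in OE-LECs. Kdr, the VEGF receptor that pairs with Nrp1, had 15527 and 10102 reads in skin (interval of the log2 ratio -1.03 to -0.96), and was 1.23-fold lower in OE-BECs and 1.12-fold higher in OE-LECs.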

How the data were processed

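Total RNA libraries (ScriptSeq v2) were made from sorted skin BECs and from cultured, transduced BECs and LECs. For the deposited raw counts per gene symbol, the authors used skewer (version 0.2.2) for adapters, STAR (version 2.7.9a) for alignment to mm10 and VERSE (version 0.1.5) for counting. VERSE was run with its -S option. Whether the counting used strand is not stated further in the sources used here.

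Samples were grouped by their titles, with 1 library in each of 6 groups, and files hold no replicate. For each comparison, size factors of its 2 libraries (median of ratios, DESeq2 version 1.42.0, R version 4.3.3) gave normalized counts, and all rules were run on the whole table. Exact intervals were computed with scipy 1.17.1 and pandas 2.3.3 in Python 3.11.15. No test of a condition and no p-value was computed, since the quasi-likelihood test of edgeR needs replicates. Genes needed at least 10 reads in the pair to enter medians and interval counts. Members had a median of 684, 598 and 1017 reads in the pair for cKO, OE-BECs and OE-LECs, and all such genes had 399, 727 and 1656, and more reads narrow an interval. Exon length is the union of GENCODE M21 exons. Only Nrp1 and Sema4a share exon bases with another counted gene, a microRNA in each case. The sequences of promoters are from RefSeq (GRCm38.p6).

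Members and lists were chosen with earlier results of these data known. Members described in full were the 13 main vascular ligands and receptors, those past the 3-fold rule whose larger normalized count reached 20, and the 5 with the highest CPM per kb in any library, 18 in all. Other members, Furin and Kdr are named with values chosen after these were seen. The fold rule between control libraries, in CPM, and the count over both cultured lines were added after the data were seen. Alternatives were size factors from all 6 libraries, TMM factors of edgeR 4.0.16, total counts with and without the ribosomal gene Rn45s (5.91% and 10.9% of reads in cultured Cont BECs and OE-BECs, under 0.6% elsewhere), other minimums, a fold of 2, and a pseudocount of 1. The steps were tested on simulated counts with known changes and Poisson error only, which does not test variation between replicates.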

Additional observations from a re-analysis of the deposited data

Results flagged for a closer look

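The members Nrp1, Sema6b and Sema6d had counting intervals on opposite sides of no change in the 2 cultured lines. Nrp1 was lower in OE-BECs (log2 ratio -0.51) and higher in OE-LECs (0.49), a difference of 1.001. Sema6d was lower in OE-BECs (-0.35) and higher in OE-LECs (0.76), a difference of 1.10. Sema6b was higher in OE-BECs (0.33) and lower in OE-LECs (-0.13), a difference of -0.45 for OE-LECs minus OE-BECs. With 1 library per group these differences were not tested. Of all genes with at least 10 reads in both pairs, 9.51% lay on opposite sides in this way.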

How the results depend on the processing

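The number of members past the rule in the library labelled cKO was 0 in either direction. It became 1 higher with size factors from all 6 libraries or with no minimum (Sema4f, 1 and 5 reads), and 1 higher (Plxnc1) and 1 lower (Sema6a) with a fold of 2. In OE-BECs the 4 higher became 7 with a fold of 2. In OE-LECs the 4 higher became 2 and the 1 lower became 0 with a minimum of 20 normalized counts, and the lower became 2 with a fold of 2. All other counts stayed within 1.5 times the main value. Of 260 log2 ratios of the 18 members described in full, 250 stayed within their counting interval, none changed sign, and scaling moved none by more than 0.06. No replicate could be left out, with 1 library per group. No paired analysis was possible because each group has 1 library and the labels give no replicate numbers. Members under 10 reads are limited by depth.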
